A study of Mus musculus with 2 samples.

Results

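The fibroblast growth factor (FGF) genes examined here were 6 ligands, Fgf1, Fgf2, Fgf7, Fgf9, Fgf10 and Fgf18, and the 4 receptors Fgfr1, Fgfr2, Fgfr3 and Fgfr4. They were found by gene name among the non-control probes of both scanner files, which gave 19 of 39429 probes. Of these, 16 probes were bright enough to be kept, and all 10 genes were tested among 19801 genes. The other 3 probes, 1 each for Fgf1, Fgf2 and Fgfr3, were not well above background in any RNA.

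The tissue was the ureter of NMRI mouse embryos at E14.5 (a mid-gestation embryonic day), taken by dissection. Gata6cKO embryos had the genotype Tbx18(cre/+);Gata6(fl/fl): both copies of Gata6, a zinc finger transcription factor, were floxed, and cre recombinase sat in 1 copy of Tbx18. Control embryos were Gata6(fl/?), with at least 1 floxed copy, the other copy not given in the labels, and no cre listed. Total RNA, 4 RNAs in all, was compared in pairs on 2 two-colour arrays: the male array (replicate 1) had Gata6cKO in Cy5 and control in Cy3, and the female array (replicate 2) had the dyes exchanged. Tbx18 marks the loose mesenchyme around the ureteric epithelium, so cre was placed in a mesenchymal gene and not in an epithelial one. Nothing in the labels says whether an RNA came from 1 embryo or several. The male and female RNAs of a genotype came from different embryos, so their spread mixes embryo, sex and technical differences. How much of it is technical is not known. Each p-value, SE and interval of the fit rests mostly on a spread shared over all genes (11.9 prior degrees of freedom). The spread of the gene itself adds only 1 degree of freedom. Sex, dye orientation and array cannot be told apart, and loss of Gata6 cannot be told apart from the presence of cre in a Tbx18 copy.

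FGFs are secreted signals that bind receptor tyrosine kinases on neighbouring cells, together with heparan sulfate on the cell surface, and switch on the Ras and MAP kinase relay. Fgf7 and Fgf10 are made by mesenchyme and act on the IIIb splice form of Fgfr2, which epithelia carry, whereas Fgf9 acts mainly on the IIIc forms found in mesenchyme. In the urinary tract and other branching organs this exchange is known for driving epithelial growth, and epithelial FGFs act back on the mesenchyme.

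The factor targeted in Gata6cKO reads GATA motifs. For both ligands that passed the test and for Fgf9, the 250 bases before the start of transcription are shown. Fgf9 did not pass the test. Like Fgf2, whose window is not printed, it had positive ratios on both arrays. The sequences are those of RefSeq on GRCm38.p6, all on the plus strand, at chr2:126034408-126034657 for Fgf7, chr13:118714449-118714698 for Fgf10 and chr14:58072436-58072685 for Fgf9. Capitals mark a match to AGATAA, the variant AGATAG, the variant TGATAA or the variant TGATAG, on this or the other strand. Overlapping matches were counted separately.
Fgf7: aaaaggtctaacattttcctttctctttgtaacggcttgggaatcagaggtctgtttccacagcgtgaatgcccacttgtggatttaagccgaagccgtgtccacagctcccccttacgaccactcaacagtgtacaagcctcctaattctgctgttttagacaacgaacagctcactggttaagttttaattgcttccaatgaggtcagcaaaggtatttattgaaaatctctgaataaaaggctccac
Fgf10: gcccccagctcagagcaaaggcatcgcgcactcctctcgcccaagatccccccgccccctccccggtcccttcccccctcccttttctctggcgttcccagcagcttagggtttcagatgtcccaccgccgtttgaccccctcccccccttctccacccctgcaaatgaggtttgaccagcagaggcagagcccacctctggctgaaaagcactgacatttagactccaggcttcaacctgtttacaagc
Fgf9: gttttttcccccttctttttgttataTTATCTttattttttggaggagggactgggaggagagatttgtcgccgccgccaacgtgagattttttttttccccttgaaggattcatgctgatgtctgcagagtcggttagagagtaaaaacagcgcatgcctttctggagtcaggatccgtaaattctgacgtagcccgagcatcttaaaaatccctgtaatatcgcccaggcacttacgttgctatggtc
The Fgf9 window held 1 match, which began 224 bases before the start, and those of Fgf7 and Fgf10 held none. The Fgf2 window held none either, so the windows do not divide the ligands by the sign of their ratios. A promoter was listed for 8 of the 10 genes, in 9 windows, and 1 window held a match. Over all 32851 RefSeq promoters in the table, 26.5% held at least 1. The letters GATA alone, on either strand, stood in 3 of the 9 windows and in 53.6% of all promoters, and again in neither Fgf7 nor Fgf10. A match in this window describes its letters only.

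The values below rest in part on 3 probe sequences, each written in the sense of the transcript with coordinates on mm9, the build of the scanner files. Both kept Fgf18 probes share 26 bases and so measure the same stretch of transcript. The Fgf2 and Fgfr3 probes are shown because their 60 bases are split in the genome, over 47220 and 235 bases, and therefore join parts of a spliced transcript.
Fgf18, shared bases, chr11:33017474-33017499, minus strand: acgaggaaactgcgagaaaccaaagt
Fgf2, chr3:37247934-37295153, plus strand: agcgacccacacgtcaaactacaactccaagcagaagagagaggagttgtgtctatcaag
Fgfr3, chr5:34077856-34078090, plus strand: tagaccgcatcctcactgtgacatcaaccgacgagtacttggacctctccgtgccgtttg
No exon map of mm9 was used, so the part of the gene that a probe reads is not given here.

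The ligands Fgf10 and Fgf7 were lower in Gata6cKO ureters, by 1.69-fold and 1.56-fold, and the other 8 genes did not pass the test. The threshold was a limma adjusted p under 0.05, adjusted by Benjamini-Hochberg over 19801 genes. Of the 10 genes, 2 were called lower and 0 higher. Across all genes tested, 4.55% were called in either direction, 2.35% lower and 2.2% higher. The 10 genes had a median log2 ratio of -0.05, against -0.0019 for all genes tested. On single arrays the median of the 10 was -0.21 (male) and 0.03 (female). Over both arrays, 4 genes had a negative ratio on each, 4 a positive one on each, and 2 had opposite signs. Unadjusted p-values were under 0.05 for 4 of them, namely Fgf7, Fgf10, Fgf9 and Fgfr1.

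Fgf10, the mesenchymal ligand needed for lung and limb outgrowth, had a normalised log2 intensity of 9.60 and 9.41 in the Gata6cKO RNAs of the male and female array. In the control RNAs it was 10.21 and 10.32. Both Gata6cKO values lay below both control values, and the gap was wider on the female array. Gata6cKO over control, the log2 ratio was -0.61 on the male array and -0.91 on the female one. Fitted over both, it was -0.76 ± 0.12 (moderated SE, n = 2 arrays; limma adjusted p = 0.00156), with a 95% interval of -1.01 to -0.50. Counted from the lowest of the 19801 ratios, this was rank 137, and that of Fgf7 rank 197. The 4 spots of the probe agreed closely within an array: their ratios ran from -0.63 to -0.57 on the male array and from -0.93 to -0.89 on the female array. The probe lies at chr13:119580365-119580424 on the plus strand of mm9.

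Fgf7, also called keratinocyte growth factor, a mesenchymal growth signal for epithelia, likewise had both Gata6cKO RNAs below both control RNAs. Its normalised log2 intensity was 10.68 and 10.58 in Gata6cKO (male, female) and 11.35 and 11.19 in control. The array ratios were -0.67 (male) and -0.62 (female), so the arrays differed less from each other than they did for Fgf10. The fitted log2 ratio was -0.64 ± 0.11 (moderated SE, n = 2 arrays; limma adjusted p = 0.00327), with a 95% interval of -0.88 to -0.40. On the male array 1 spot of 4 was an outlier and was left out. Agilent's processed signal, on a linear scale, was 407 and 417 in Gata6cKO, against 661 and 648 in control. The probe lies at chr2:125916134-125916193 on the plus strand. With median centring in place of the loess curve neither ligand passed the test: Fgf7 had a log2 ratio of -0.67 with an adjusted p of 0.438, and Fgf10 one of -0.77 with an adjusted p of 0.180.

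In these bulk RNAs, fewer cells of a type and less RNA per cell cannot be told apart. Of 11 marker genes of ureteric mesenchyme and fibroblasts, 3 were called lower and 0 higher, with a median log2 ratio of -0.31. All 11 ratios were negative, and 7 genes had an unadjusted limma p under 0.05. Over all 19801 genes tested, 10058 ratios were negative and 2250 genes had such a p. Under median centring 1 of the 11 markers was called. Their summed processed signal was 164660 and 169548 in Gata6cKO, against 223658 and 207071 in control, and all 11 were above background. The brightest was Col1a2, a collagen chain, at -0.26 ± 0.11 (limma adjusted p = 0.395), followed by Dcn, a matrix proteoglycan of fibroblasts, which fell by 0.55 ± 0.12 (adjusted p = 0.0151). Tbx18 itself had a log2 ratio of -0.20 ± 0.14 (adjusted p = 0.861). The part of these markers in the Fgf7 and Fgf10 results was not tested.

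**Figure D1:**
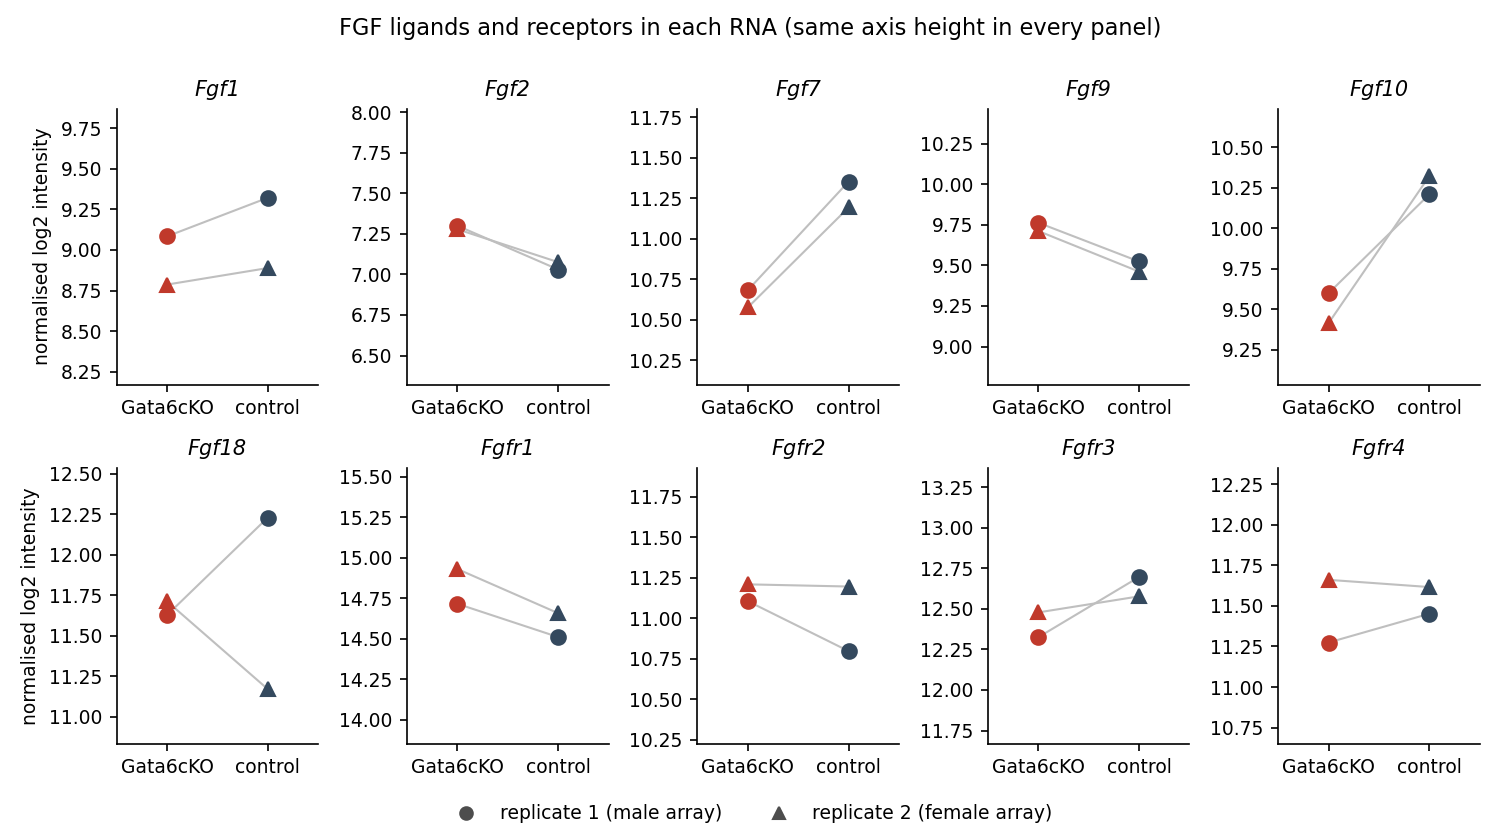
Normalised log2 intensity of each of the 10 FGF genes in the 4 RNAs, Gata6cKO left and control right; circles are the male array, triangles the female array, and lines join the RNAs of an array. Every panel spans the same height, and levels of different genes are not comparable; Fgf7 and Fgf10 slope upwards to control on both arrays, and the Fgf18 lines cross.

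Fgf9, a ligand of epithelia and mesothelium that acts on mesenchyme, had positive ratios that were nearly equal on both arrays. Its normalised log2 intensity was 9.76 and 9.71 in Gata6cKO (male, female) and 9.52 and 9.46 in control. Both Gata6cKO values lay above both control values, by 0.24 and 0.25 within the arrays. The fitted log2 ratio of 0.24 ± 0.11 (moderated SE; 95% interval 0.0072 to 0.48) did not pass the adjusted threshold (limma adjusted p = 0.407). Its interval did not overlap that of Fgf7 or of Fgf10.

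Fgf18, a ligand of the Fgf8 subfamily that acts on the IIIc receptor forms and on cartilage growth, moved in opposite directions on the arrays. In Gata6cKO its normalised log2 intensity was 11.63 (male) and 11.71 (female), whereas in control it was 12.23 (male) and 11.17 (female). The Gata6cKO RNAs thus lay between the control RNAs, and the male and female control RNAs stood farther apart than any other pair. From male to female the level changed by 0.08 in Gata6cKO and by -1.06 in control. The ratios were -0.60 on the male array and 0.54 on the female one, a gap of 1.14, larger than the gap of 99.5% of the genes tested. The second probe, with which the first shares the 26 bases printed above, gave -0.67 and 0.63. The spots of the first probe had an SD of 0.028 and 0.018 within the arrays, which does not measure the spread between embryos or arrays. The fit over both arrays gave -0.03 ± 0.19 (95% interval -0.45 to 0.39; limma adjusted p = 1.00). This moderated interval rests mostly on the spread shared over all genes and holds neither array ratio, so it understates the spread of Fgf18.

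Fgf1 and Fgf2 are ligands that lack a classical secretion signal. Fgf1, which binds all FGF receptors, had a normalised log2 intensity of 9.08 and 8.79 in Gata6cKO and 9.32 and 8.89 in control. Its groups overlapped, and the array ratios were -0.24 (male) and -0.10 (female). The fit gave -0.17 ± 0.11 (95% interval -0.41 to 0.07; limma adjusted p = 0.830). The female array had the widest scatter between spots of any kept probe here, with an SD of 0.117. A second Fgf1 probe was not well above background in any of the 4 RNAs.

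Fgf2, basic FGF, is widespread in mesenchyme and matrix. It had a normalised log2 intensity of 7.30 and 7.28 in Gata6cKO and 7.03 and 7.08 in control. The groups did not overlap, and the signal was dim. The array ratios were 0.27 (male) and 0.20 (female), and the fit gave 0.24 ± 0.11 (95% interval -0.0023 to 0.47; limma adjusted p = 0.451). In Agilent's processed signal the probe read 20.8 and 22.4 in Gata6cKO, against 14.4 and 16.7 in control. On that scale the log2 ratio was 0.48 with an adjusted p of 0.0377, and in the deposited series values it was 0.47 with an adjusted p of 0.0198. Fgf2 passed in these 2 of the 9 settings that had a test. A second Fgf2 probe, inside the span of the first on the genome, was not well above background in any RNA.

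Among the receptors no gene passed the test, and the probes of a receptor did not always give the same sign. Fgfr1, the main receptor of mesenchyme, had a normalised log2 intensity of 14.72 and 14.93 in Gata6cKO and 14.51 and 14.66 in control. Both Gata6cKO values lay above both control values. The fit gave 0.24 ± 0.11 (95% interval 0.000052 to 0.48; limma adjusted p = 0.440). A second kept probe had array ratios of 0.12 (male) and -0.09 (female), and the third 0.21 and 0.12. Fitted singly, those probes gave 0.02 ± 0.11 and 0.17 ± 0.11, so the ratio was smallest on the second probe. With the mean of all kept probes the ratio of Fgfr1 was 0.14.

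Fgfr2, the receptor whose IIIb form receives Fgf7 and Fgf10, had a normalised log2 intensity of 11.11 and 11.21 in Gata6cKO and 10.80 and 11.20 in control. The male control stood below the other RNAs, which lay close together. The array ratios were 0.31 (male) and 0.01 (female), and the fit gave 0.16 ± 0.12 (95% interval -0.09 to 0.41; limma adjusted p = 0.931). The other kept probe, which shares 42 bases with the first, gave 0.39 and -0.04. Neither probe was matched to a splice form, so these values are not split into IIIb and IIIc.

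Fgfr3, a receptor of epithelia and cartilage, differed between its probes. The brightest probe had a normalised log2 intensity of 12.32 and 12.48 in Gata6cKO and 12.70 and 12.58 in control, with no overlap. Its array ratios were -0.37 (male) and -0.10 (female), and the fit gave -0.24 ± 0.12 (95% interval -0.49 to 0.016; limma adjusted p = 0.519). The split probe printed above gave 0.17 (male, 3 of 4 spots usable) and -0.13 (female), fitted at 0.02 ± 0.12. With the mean of both kept probes the ratio of Fgfr3 was -0.11. The third Fgfr3 probe was not well above background in any RNA.

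Fgfr4, a receptor known from liver and embryonic muscle, had a normalised log2 intensity of 11.27 and 11.66 in Gata6cKO and 11.45 and 11.62 in control. The Gata6cKO RNAs enclosed the control RNAs. Array ratios were -0.18 (male) and 0.04 (female), and the fit gave -0.07 ± 0.11 (95% interval -0.31 to 0.18; limma adjusted p = 1.00). Its other kept probe gave -0.01 and -0.12, fitted at -0.06 ± 0.11. For the 8 genes that missed the threshold, the intervals lay between -0.49 and 0.48 on the log2 scale, which does not show that they were equal in both genotypes. These moderated intervals draw mostly on the spread shared over all genes, and that of Fgf18 held neither of its array ratios.

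**Figure D2:**
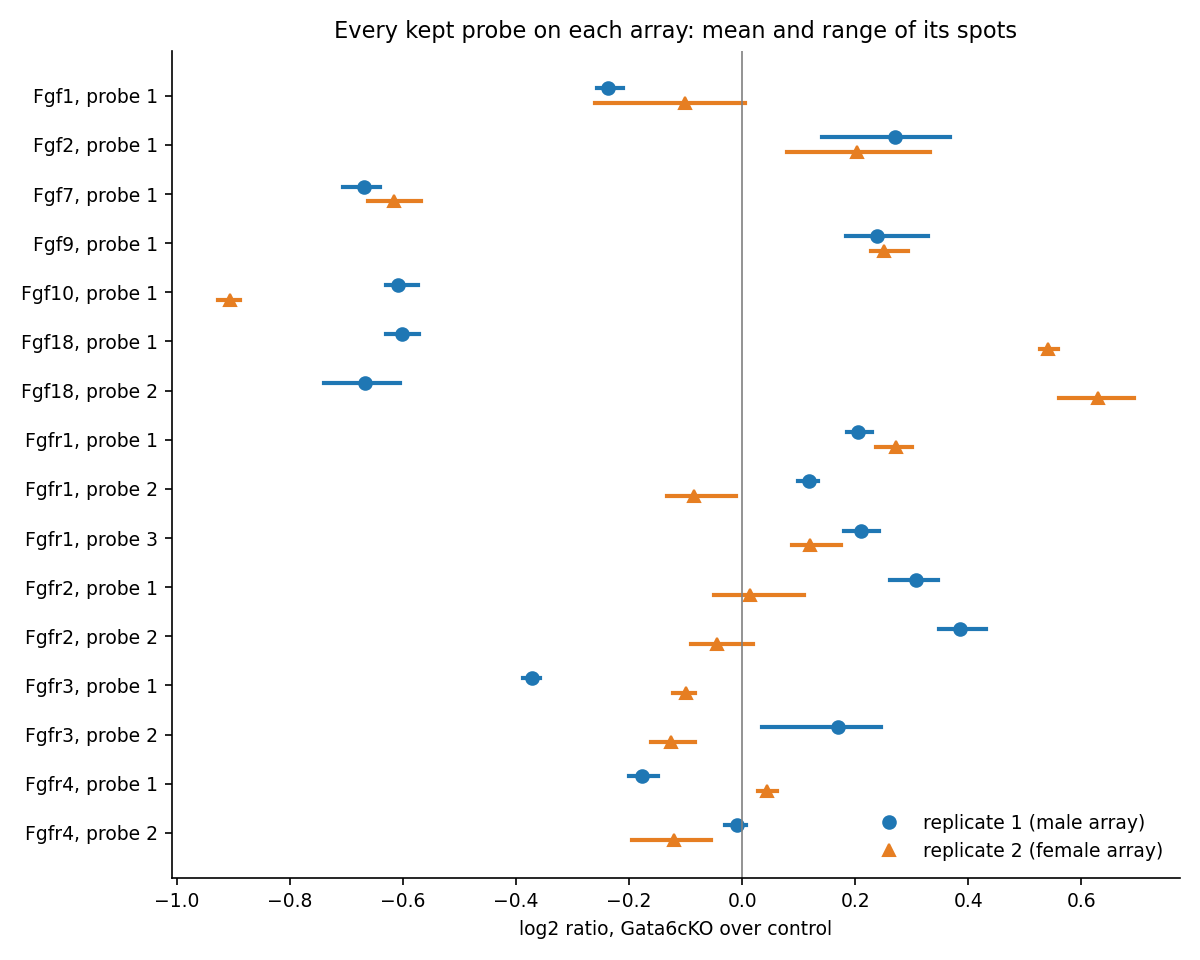
Log2 ratio of Gata6cKO over control for each of the 16 kept probes, on the male array (circles) and the female array (triangles); symbols are means of the usable spots and bars run from the lowest to the highest spot. Fgf7 and Fgf10 lie left of 0 on both arrays, both Fgf18 probes lie on opposite sides of 0, and the other probes stay between -0.37 and 0.39.

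Of 16 other FGF ligands, 9 were above background and none was called by limma at an adjusted p under 0.05, with 1 at an unadjusted p under 0.05 (Fgf14). Their median log2 ratio was -0.0059. With the deposited series values, 1 of them was called lower. The lowest ratios were those of Fgf14, a neuronal intracellular FGF, at -0.25, of the muscle ligand Fgf6 at -0.24 and of Fgf5, a regulator of the hair cycle, at -0.21. Fgf8, an embryonic patterning signal, stood at -0.09 with -0.34 on the male array and 0.16 on the female one. The intracellular Fgf13 was at -0.0059, and the bone hormone Fgf23 at 0.04. Positive ratios were found for Fgf22 (0.10), an organiser of synapses, and for Fgf12 (0.17) and Fgf11 (0.18), both intracellular. Fgf3, Fgf4, Fgf15, Fgf16, Fgf17, Fgf20 and Fgf21 were not above background and have no ratio here.

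Around the receptors, 7 of 8 co-receptors and binding proteins were above background, with 1 called lower, 0 higher and a median log2 ratio of 0.04. The called gene was Kl, which encodes Klotho, the co-receptor of the hormone Fgf23. Its normalised log2 intensity was 6.53 and 6.71 in Gata6cKO and 6.93 and 7.37 in control. In both Gata6cKO RNAs it was not well above background, so its measured level was at least 1.32-fold lower there. The limma adjusted p of its log2 ratio was 0.0160. Kl was kept through its control signal alone, and such a filter favours a call in this direction. The bound sets the control mean against, per array, the higher of the lowest signal well above background and the probe's own signal. It carries no error and is not a confidence limit. The call of Kl was lost under median centring, with dim probes unfiltered and with separate channels, each of which left 0 genes called in this list, whereas Agilent's processed signals and the series values each gave 2. None of the 22 genes of heparan sulfate core proteins and enzymes was called in the main setting, at a median of 0.02, though 6 had an unadjusted p under 0.05. The brightest, the sulfatase Sulf1, was at 0.04 ± 0.11, and the one of smallest p, the glypican Gpc2, at -0.44 ± 0.12 (adjusted p = 0.0663). Agilent's processed signals, the series values and an intensity trend in the prior each left 1 gene of this list called lower.

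The choice between the IIIb and IIIc forms is made by splicing, and 1 of the 4 splicing regulators listed was called lower and 0 higher, with a median log2 ratio of -0.21. Esrp2, an epithelial RNA-binding protein that promotes the IIIb form of Fgfr2, had a normalised log2 intensity of 9.71 and 9.76 in Gata6cKO and 10.32 and 10.33 in control. The groups did not overlap, and the arrays agreed, at -0.60 (male) and -0.58 (female). Esrp2 fell by 0.59 ± 0.11 (moderated SE, n = 2 arrays; limma adjusted p = 0.00592), and the call was lost under median centring. Its paralogue Esrp1 had a ratio of -0.38 ± 0.11 that did not pass (adjusted p = 0.0896). Rbfox2 and Ptbp1, broadly expressed splicing factors that act on the same exons, had 0.36 ± 0.12 (adjusted p = 0.129) and -0.03 ± 0.11 (adjusted p = 1.00). Epithelial markers moved with Esrp2: 10 of 18 were called lower and 0 higher, all 18 were above background, and the median was -0.56. Their summed processed signal was 65374 and 61184 in Gata6cKO, against 89240 and 81937 in control. The 2 brightest, the keratins Krt18 (-0.11 ± 0.12, adjusted p = 1.00) and Krt8 (-0.35 ± 0.11, adjusted p = 0.116), were not among the called. The part of the epithelial markers in the Esrp2 result was not tested.

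Downstream of the receptors, the 16 of 17 relay genes above background had a median log2 ratio of 0.05 and ran from -0.16 to 0.13, the narrowest range of the pathway lists. None was called by limma, and 0 had an unadjusted p under 0.05. The brightest was Ptpn11, the phosphatase that links receptors to Ras, at 0.09 ± 0.11, and the smallest p was that of Sos1, the Ras exchange factor, at -0.16 ± 0.12 (adjusted p = 0.946).

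Of 13 feedback and target genes of FGF signalling, 12 were above background, with 2 called lower, 0 higher and a median of -0.15. Dusp4, a phosphatase that switches off MAP kinases, had a normalised log2 intensity of 7.57 and 7.61 in Gata6cKO and 7.98 and 8.13 in control. It fell by 0.46 ± 0.11 (limma adjusted p = 0.0286), with no overlap of the groups. Etv1, an ETS transcription factor induced by FGF in many tissues, had 12.44 and 12.37 in Gata6cKO and 12.72 and 13.04 in control. It fell by 0.48 ± 0.12 (adjusted p = 0.0441), with -0.28 on the male array and -0.67 on the female one. The remaining members did not pass: the related factors Etv4 and Etv5 stood at -0.20 ± 0.11 and -0.39 ± 0.13, the phosphatase Dusp6 at -0.06 ± 0.11, and the inhibitors Spry1, Spry2 and Spry4 at -0.15, 0.24 and -0.15. Median centring, the unfiltered probes and separate channels each left 0 genes of this list called, and Agilent's processed signals left 1.

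**Figure D3:**
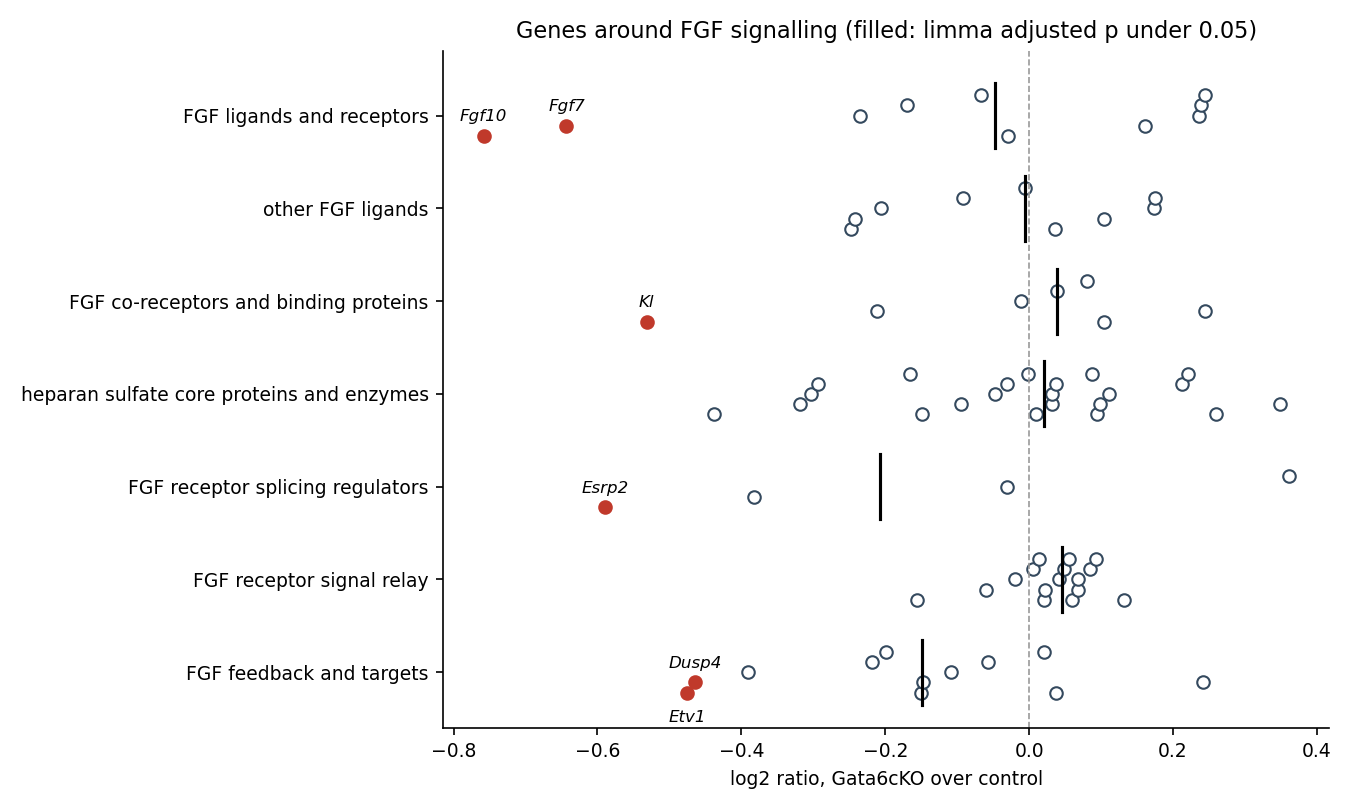
Log2 ratio of Gata6cKO over control, fitted over both arrays, for the genes of each list that were above background. Each circle is a gene, the vertical bars are list medians, and filled circles are genes with a limma adjusted p under 0.05: Fgf10 and Fgf7, Kl, Esrp2, and Dusp4 and Etv1, all left of 0.

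The remaining cell type markers are given for the tissue as a whole. Smooth muscle had 4 of 8 genes called lower and 0 higher (median -0.55), and its summed processed signal was 9704 and 8050 in Gata6cKO, against 13080 and 10448 in control. Neurons and glia had 10 of 12 called higher and 0 lower (median 1.20), at 30166 and 33507 in Gata6cKO, against 27967 and 24913 in control. Skeletal muscle had 4 of 7 measured genes called higher (median 0.55) and nephron and kidney stroma 4 of 8 (median 0.40). Of 3 mesothelial genes tested 2 were lower and 1 higher, namely Wt1, which is also counted among the nephron and kidney stroma genes. Upk3b, 1 of the lower genes, had only 1 and 2 of 4 spots well above background in the Gata6cKO RNAs. Like Kl, it was kept through its control signal alone, and such a filter favours a call in this direction. Of 5 erythroid genes 3 were lower, and of 6 endothelial genes 1 was lower. Several of these counts fell under other settings. Median centring left 1 skeletal muscle and 1 nephron and stroma gene called higher, and 0 erythroid and 0 endothelial genes lower. Without the filter on dim signals, 1 nephron and stroma gene was called higher, and 0 erythroid and 0 endothelial genes lower. Separate channels left 0 skeletal muscle and 2 nephron and stroma genes higher, and 1 erythroid and 0 endothelial genes lower. None of 6 macrophage genes was called (median 0.02), and 0 had an unadjusted p under 0.05. Myf5, Ckm and Lrrn4 were not above background. Each channel had between 67.2% and 68.5% of its spots well above background, and the number of arrays limits the precision. The Gata6 probe had a higher signal in Gata6cKO, by 0.65 ± 0.12 on the log2 scale (limma adjusted p = 0.00612); it was not placed relative to the floxed exon and so checks nothing about the labels.

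**Figure D4:**
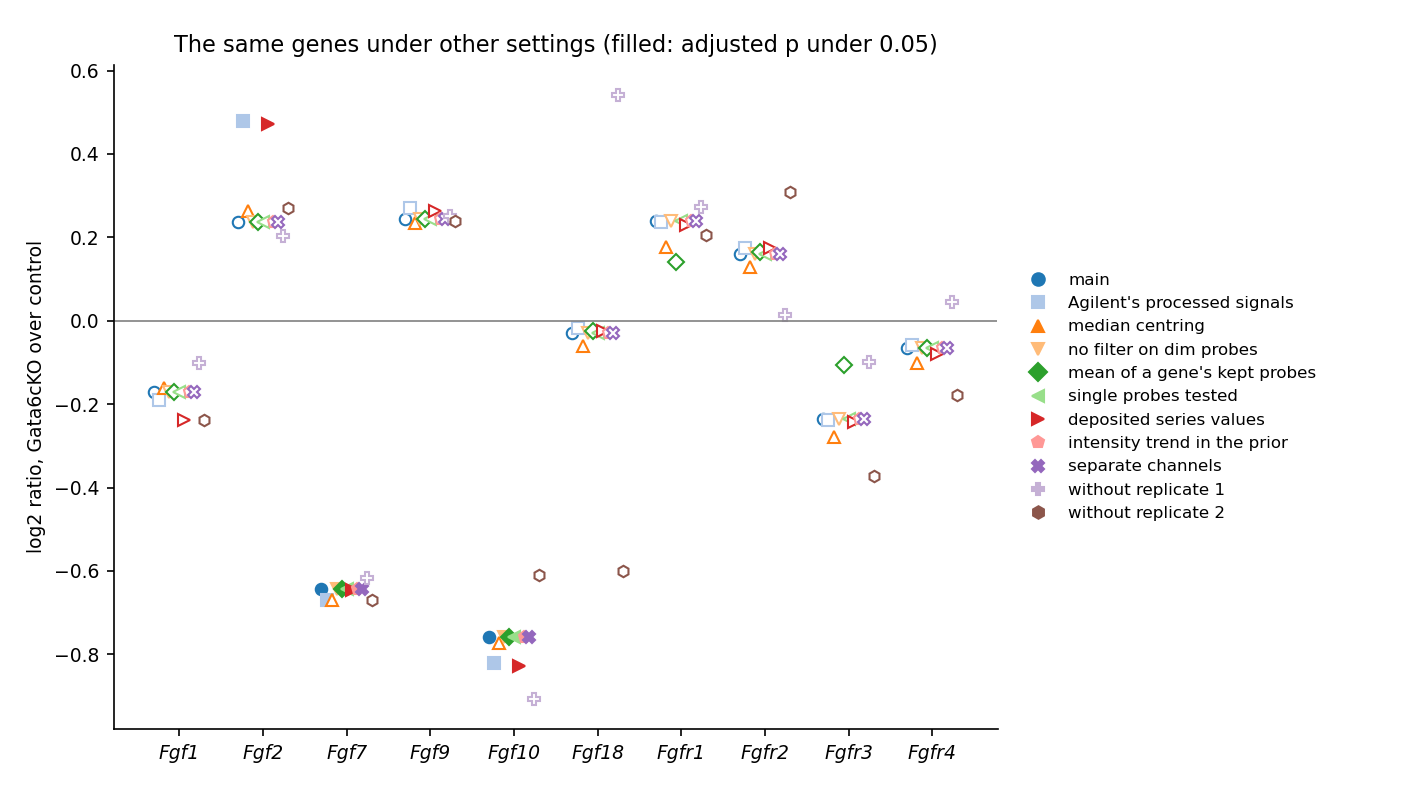
Log2 ratio of Gata6cKO over control for each FGF gene under the main setting and 10 others; each symbol is a setting, and filled symbols have an adjusted p under 0.05. Fgf7 stays between -0.67 and -0.62 and Fgf10 between -0.91 and -0.61 in every setting drawn. Several settings refit the same ratios and so repeat the main value of both. Fgf18 spans -0.60 to 0.54, and Fgf2 is filled only for Agilent's processed signals and the deposited series values.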

How the data were processed

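Per the labels' protocols, 150 ng of total RNA per sample was amplified into Cy3- or Cy5-labelled cRNA and hybridised to 2 arrays with 4 spots per 60-base probe. The deposited scanner files give raw mean and local background intensity per spot. They also hold the intensity and the log10 ratio of Cy5 over Cy3 that the authors processed with Agilent Feature Extraction 10.7.3.1, per the file headers and the submitters' processing notes. The deposited series values are a score, found here to be the linear fold of Gata6cKO over control, with a minus sign where control was higher: both column medians are 1, and after conversion to log2 they had Pearson r of 0.986 and 0.980, across probes, with the processed ratios. How spots were summarised for it is not given in the sources used here. There were 0 unused per-sample columns.

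Raw intensities were background-corrected with normexp (offset 50) and loess-normalised within each array in R 4.3.3 (limma 3.58.1, statmod 1.5.0, data.table version 1.17.8); control and outlier spots had weight 0. Each probe took the mean of its usable spots and was kept with at least 3 of 4 spots well above background in 1 genotype on both arrays (26200 of 39429). The brightest kept probe stood for a gene, and 5046 genes had several. Symbols were updated through RefSeq accessions (28328 probes matched, 1602 symbols changed). No spot was saturated (0). Levels per RNA are log2 intensities after loess and Aquantile scaling, and ratios turn the sign of the dye-swapped array. Log2 ratios were fitted with lmFit and eBayes (1 residual and 11.9 prior degrees of freedom), two-sided, with Benjamini-Hochberg adjustment over 19801 genes. The steps were tested on simulated data. Of 19601 genes simulated without a change, 0.33% were called. Of 50 genes simulated at each log2 ratio, 98% were called at -0.7 and 100% at -1, 0.7 and 1. The 0.33% is a share of the unchanged genes, not of the calls. False calls thus made up a larger share of the simulated calls than the adjusted p threshold allows. Every count of calls given here, and the share called over all genes, rests on the same threshold. Calls nearer the threshold, such as those of Kl, Dusp4 and Etv1, are less certain for this reason.

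The FGF genes and all lists were chosen with earlier results of these data known, so no list was tested: counts, medians and the background share are given. Named were all 10 genes with every probe, of each pathway list every called gene or, with none, the brightest gene and that of smallest p, all other FGF ligands above background, and up to 2 brightest genes of a cell type list. The other genes given by name (such as Tbx18, Gata6, Etv4, Etv5, Dusp6, Esrp1, Rbfox2, Ptbp1 and the Spry genes) were chosen after their values were seen. Alternatives were Agilent's signals, median centring, no filter, mean of probes, single probes, series values, separate channels, an intensity trend in the prior, and each array alone.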

Additional observations from a re-analysis of the deposited data

Results flagged for a closer look

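Fgf18 and Fgfr4 had opposite signs on the male and the female array. On the log2 scale, Gata6cKO over control was -0.60 on the male array and 0.54 on the female one for Fgf18, and -0.18 on the male array and 0.044 on the female one for Fgfr4. With 1 array per sex, this difference was not tested, and sex cannot be told apart from dye orientation or array. Both Fgf18 probes showed the change of sign, whereas the other kept Fgfr4 probe was at -0.01 and -0.12.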

How the results depend on the processing

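Over the 8 other settings that had a test, the 10 FGF genes lost 2 calls and gained 2. Neither Fgf7 nor Fgf10 changed sign in any of the 10 settings, but in many of these the sign could not change. Both have 1 kept probe. No filter, mean of probes, single probes, an intensity trend and separate channels therefore gave exactly the main ratio, and only the error differed. Each array alone is a part of the main fit. Median centring left 0 of the genes called lower: Fgf7 was at -0.67 (adjusted p = 0.438) and Fgf10 at -0.77 (adjusted p = 0.180), with a wider SE of 0.26. The cause was not tested. Both were called in 8 of the 9 settings with a test. Agilent's processed signals and the deposited series values each left 1 gene called higher, Fgf2, at 0.479 (adjusted p = 0.0377) and 0.472 (adjusted p = 0.0198). The cause was not tested. Over all genes, 81 were lower and 81 higher with median centring, 229 and 248 without the filter on dim probes, 795 and 672 with the series values, and 279 and 284 with separate channels. Each array alone, a value with no test, gave a range of -0.67 to -0.62 for Fgf7, -0.91 to -0.61 for Fgf10, -0.60 to 0.54 for Fgf18 and -0.18 to 0.04 for Fgfr4; the other FGF genes had 1 sign on both. Among counts of calls in the gene lists, 230 of 256 stayed within 1.5 times the main count. Most of these main counts were 0 and nearly all of those stayed 0, so this share says little about the lists with calls. The main fit is itself paired, since the ratio of each array sets 1 Gata6cKO against 1 control RNA. Separate channels started from the same normalised values and gave the same log2 ratios for the 10 FGF genes. Only their errors and p-values differed, so this setting is no independent check of the ratios. Signal over background limits the dim probes of Fgf2 and Kl. The main setting also added an offset of 50, more than the processed signal of Fgf2, and an offset shrinks the log2 ratios of dim probes.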
